A study of Mus musculus with 6 samples.

Results

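Chemokine receptors are G protein-coupled receptors that read gradients of chemokines and steer the movement of leukocytes. They signal through Gi proteins to phosphoinositide 3-kinase, phospholipase C and the Rac exchange factors, and are then switched off by receptor kinases and arrestins. Atypical members bind a ligand without this signalling and remove it or hold it at the cell surface. In macrophages and monocytes, these receptors are known for recruitment from the blood, positioning in tissues and the handling of ligands that the same cells secrete.

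Transcripts of 9 genes of this family were followed: Ccr1, Ccr2, Ccr3, Ccr7, Ccrl2, Cx3cr1, Cxcr4, Ackr3 and Cmklr1. They were found by GENCODE M21 gene name among the 55335 Ensembl identifiers of the count table, and all 9 were present. Total RNA came from bone marrow-derived macrophages (BMDMs) of C57BL/6 mice, which are macrophages grown from marrow cells for 6 d in medium conditioned by L929 cells, a source of macrophage colony-stimulating factor. The study's methods describe male mice aged 7 to 10 weeks. The control group comprised 3 libraries of cells given PBS for 1 h, and the LPS group comprised 3 libraries of cells given lipopolysaccharide, the Toll-like receptor 4 agonist of Gram-negative bacteria, for 1 h. The library names mark every library as WT, or wild type. No group carried a further allele or agent in the labels. The labels do not say whether replicates were separate animals or cultures, so p-values measure only the spread between these samples, which may be technical.

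The libraries held 37787611 to 41516330 counts, and the 9 genes together took 24073 to 25771 of these in control libraries and 50299 to 54763 in LPS libraries. Values per group are counts scaled to a common library total (CPM) with TMM factors, which match libraries on the bulk of their genes, and are given as mean ± SD (n = 3). The TMM factors were 1.15 in each control library and 0.864 to 0.872 in the LPS libraries, so scaling enters every fold change. Over the 15687 tested genes the log2 fold change had a median of -0.01 with TMM and of -0.42 with library size alone. Markers of macrophages, among them Csf1r, Adgre1 and Lyz2, summed to 29548 to 30823 CPM in control and 32289 to 32638 CPM in LPS libraries, and all 7 genes of that list were detected in every library. Lyz2 alone took 23272 ± 481 CPM of this sum in control libraries. By adjusted p, where 67.7% of all tested genes passed, 5 of the 7 were higher with LPS, 1 was lower and 1 did not pass. Of these 7 markers, 0 passed both criteria. Their median log2 fold change was 0.20 with TMM and -0.21 with library size alone. Markers of T and NK cells summed to at most 1.04 CPM, those of B cells to at most 1.25 CPM and those of stromal cells to at most 12.1 CPM. In bulk RNA, fewer cells that express a gene and less RNA per cell cannot be told apart.

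The RefSeq promoters of the members that passed the criteria for a rise, Ccrl2 and Ccr3, are shown because they were the promoters among the members' windows that held a match to the NF-kB motif, the binding sequence of the factor that Toll-like receptors activate. RefSeq (GRCm38.p6) gave 10 windows for 8 of the 9 genes, each from 250 bases before to 50 bases after a start. The 250 bases before the start are printed 5′ to 3′ on the gene's own strand, at chr9:111057519-111057768 on the minus strand for the most upstream of the annotated starts of Ccrl2 and at chr9:124021721-124021970 on the plus strand for Ccr3. Capitals mark the NF-kB match in both, and the AP-1 match (TGANTCA) in Ccr3.
Ccrl2: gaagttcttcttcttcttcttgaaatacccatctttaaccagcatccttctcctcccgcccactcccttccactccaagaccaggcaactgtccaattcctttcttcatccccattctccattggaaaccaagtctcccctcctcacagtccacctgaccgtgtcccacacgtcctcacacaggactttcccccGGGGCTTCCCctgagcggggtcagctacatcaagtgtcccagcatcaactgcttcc
Ccr3: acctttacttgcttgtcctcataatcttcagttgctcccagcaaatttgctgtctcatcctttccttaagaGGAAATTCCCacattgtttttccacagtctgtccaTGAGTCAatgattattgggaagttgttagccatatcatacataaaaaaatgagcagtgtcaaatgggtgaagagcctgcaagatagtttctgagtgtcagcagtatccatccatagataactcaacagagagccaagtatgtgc

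The NF-kB match began at position -56 from the start in Ccrl2 and at -179 in Ccr3, and the AP-1 match in Ccr3 began at -144. Over both strands of all 32851 promoter windows of the same length, 4.51% held the NF-kB motif and 7.81% the AP-1 motif. The other Ccrl2 windows, which begin at downstream starts, held no match to either. The PU.1 motif (GAGGAA), the core sequence of a myeloid factor, was found in Ccr3 at -181, where it overlaps the NF-kB match, in Ccr1 at -129 and in Cmklr1 at -98, against 28.3% of all windows. The core of the interferon response element (GAAANNGAA; 8.56% of windows) was found in Ccr2 at -86. The TATA motif (TATAAA; 13.6% of windows) was found in Ackr3 at -8 and in Cxcr4 at -32 and -30, the latter matches overlapping. No member window held the CRE motif (TGACGTCA; 1.79% of windows). A match describes letters in a window and not a bound site.

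Of the 9 genes, 8 passed the filter on low counts and were tested with edgeR's quasi-likelihood test of LPS against control. Ccrl2 and Ccr3 passed both criteria, the adjusted p (under 0.05) and the size of the change (beyond 1 on the log2 scale), so 2 of 8 rose, where 10.5% of all tested genes rose. With edgeR, 0 of 8 fell past both criteria, against 10.4% of all tested genes. DESeq2 and limma voom also gave 0, and 2 members were lower by edgeR's adjusted p with smaller changes. By adjusted p alone, 5 members were higher and 2 lower, or 7 of 8, where 67.7% of all tested genes passed. Normalized CPM did not overlap between the groups for any of the 8 genes: 5 were higher in every LPS library, against 33.9% of all tested genes, and 3 were lower in every LPS library, against 36.6%. The median log2 fold change of the 8 genes was 0.52 with TMM and 0.11 with library size alone.

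**Figure D1:**
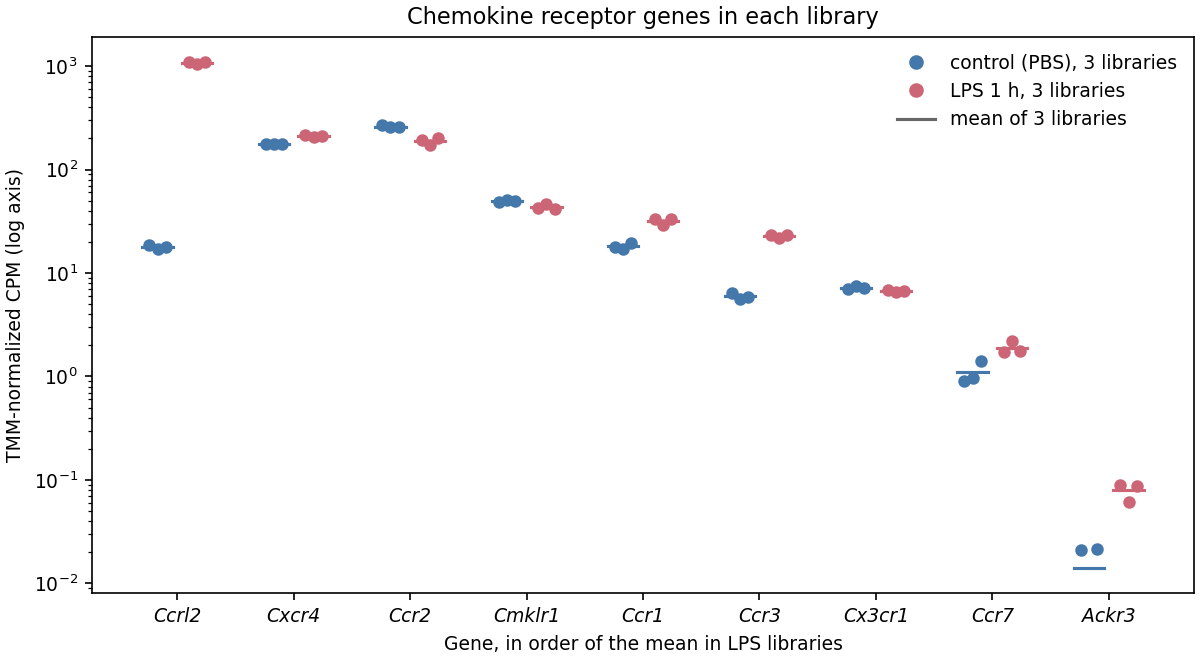
Normalized CPM of the 9 genes in each library on a log axis, with control and LPS libraries as separate points and horizontal bars for group means. Ccrl2 lies at 17.2 to 18.8 CPM in control and 1058 to 1094 CPM in LPS libraries, Ackr3 stays at the foot of the scale, and its control library with 0 counts cannot be drawn on a log axis.

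Ccrl2 (ENSMUSG00000043953.12, chromosome 9, 111054486 to 111057519, minus strand) encodes an atypical receptor that binds chemerin and presents it to neighbouring cells without known signalling of its own. Its counts were 893, 778 and 830 in control libraries and 36726, 34532 and 37101 in LPS libraries. Every LPS library lay far above every control library. The mean rose from 18.0 ± 0.767 to 1081 ± 19.9 CPM, a 60.1-fold change (log2 fold change 5.91, SE 0.04, edgeR adjusted p = 5.16e-24). By log2 fold change it ranked 129 from the top among the 15687 tested genes. With library size alone the log2 fold change was 5.50.

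Cmklr1 (chromosome 5, 113612354 to 113650426, minus strand) encodes the signalling receptor for chemerin. Its counts were 2320, 2318 and 2290 in control libraries and 1426, 1504 and 1407 in LPS libraries. The LPS libraries were all lower, by a small margin on the CPM scale, with means of 49.9 ± 1.31 and 43.3 ± 2.47 CPM (log2 fold change -0.20, SE 0.05, edgeR adjusted p = 6.97e-04). With upper quartile scaling the log2 fold change was -0.35, and with library size alone -0.61. Within each library, the ratio of the Ccrl2 level to the Cmklr1 level, both per kilobase of exon, was 0.474 ± 0.0324 in control and 32.8 ± 2.38 in LPS libraries. The groups did not overlap, and the exact two-sided permutation test gave p = 0.1, the smallest that 3 against 3 libraries allow. Rarres2, the gene of chemerin, was below the filter. It was counted 9, 3 and 7 times in control libraries and 0, 4 and 6 times in LPS libraries.

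Ccr3 (ENSMUSG00000035448.9, chromosome 9, 124021972 to 124031689, plus strand) encodes the eotaxin receptor, best known from eosinophils. Its counts were 306, 256 and 268 in control libraries and 789, 719 and 789 in LPS libraries. All LPS libraries lay above all control libraries. The mean rose from 5.97 ± 0.404 to 22.9 ± 0.778 CPM, a 3.84-fold change (log2 fold change 1.94, SE 0.07, edgeR adjusted p = 3.10e-14), and ranked 860 from the top. Markers of eosinophils, basophils and mast cells summed to 4.56 to 5.52 CPM in control and 5.55 to 6.88 CPM in LPS libraries, and 0 of their 4 tested genes passed both criteria. Among them the granule protein gene Epx had at most 5 counts in any library. The log2 fold changes of Prg2 and Siglecf were 0.09 and 0.07, each with overlapping groups. The mast cell and basophil protease genes Cpa3 (0.90, edgeR adjusted p = 0.0152) and Mcpt8 (0.97, edgeR adjusted p = 0.00400) were higher in every LPS library on the normalized scale, at no more than 34 counts each. With library size alone neither Cpa3 (0.49, edgeR adjusted p = 0.145) nor Mcpt8 (0.56, edgeR adjusted p = 0.0629) passed the test. Their part in the Ccr3 difference was not tested.

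Ccr1 (chromosome 9, 123962124 to 123968692, minus strand) encodes a receptor for Ccl3 and Ccl5 among other ligands. Its counts were 848, 778 and 889 in control libraries and 1107, 956 and 1138 in LPS libraries. The means were 18.1 ± 1.05 and 31.9 ± 2.28 CPM, without overlap, and the 1.76-fold difference stayed under the criterion for size (log2 fold change 0.82, SE 0.06, edgeR adjusted p = 1.13e-09). With library size alone it was 0.41.

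Ccr2 (chromosome 9, 124101950 to 124113557, plus strand) encodes the receptor for Ccl2 that draws monocytes out of the marrow and into inflamed tissue. Its counts were 12701, 11516 and 11915 in control libraries and 6419, 5596 and 6849 in LPS libraries. Here the LPS libraries were all lower, with means of 260 ± 6.11 and 188 ± 15.2 CPM (log2 fold change -0.47, SE 0.05, edgeR adjusted p = 5.52e-08). Library size alone gave -0.87, so the direction was the same and the size larger. Of the 50-base windows of its transcripts, 1.91% also occur in transcripts of other genes.

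Ccr7 (chromosome 11, 99144196 to 99155077, minus strand) encodes the receptor that guides dendritic cells and lymphocytes to lymph nodes. Control libraries held 43, 44 and 65 counts of it and LPS libraries 58, 71 and 60, so few counts lie behind each value. Normalized levels were 1.10 ± 0.274 and 1.89 ± 0.249 CPM, with all LPS libraries above all control libraries (log2 fold change 0.78, SE 0.19, edgeR adjusted p = 0.00166). With library size alone, the log2 fold change was 0.38 and the adjusted p of edgeR 0.0804. Without control replicate 3, the log2 fold change was 1.01, which would make Ccr7 the third member past both criteria. Markers of dendritic cells moved in the same comparison: 5 of 6 rose, namely Flt3, Zbtb46, Xcr1, Cd209a and Ccl22, where 10.5% of all tested genes rose. The list summed to 2.72 to 3.17 CPM in control and 13.4 to 14.2 CPM in LPS libraries. Ccl22 alone took 6.43 ± 0.554 CPM of the LPS sum. Counts were low, with Cd209a at 8, 8 and 10 in control and 13, 14 and 19 in LPS libraries. The log2 fold change of Cd209a was 0.88 with library size alone, under the criterion for size. The part of these markers in the Ccr7 difference was not tested.

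Cx3cr1 (chromosome 9, 119901616 to 120069879, minus strand) encodes the receptor for fractalkine, a marker of resident macrophages and patrolling monocytes. Its counts were 330, 339 and 328 in control libraries and 228, 215 and 227 in LPS libraries. On the normalized scale the means were 7.18 ± 0.293 and 6.68 ± 0.104 CPM, and the difference did not pass the test (log2 fold change -0.10, SE 0.08, edgeR adjusted p = 0.286). It passed with upper quartile scaling (log2 fold change -0.25, adjusted p = 0.0142) and with library size alone (-0.51, adjusted p = 2.51e-05), so the call depended on scaling. The gene model spans 168264 bp with 4505 bp of exon and overlaps 9 other gene models. Among those is Csrnp1, the gene of a nuclear protein, with 351 to 445 counts in control and 32189 to 32736 in LPS libraries. Csrnp1 shares no exonic base with Cx3cr1, since the 78 exonic bases that Cx3cr1 shares are with Gm33858, which had at most 2 counts in any library.

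Cxcr4 (chromosome 1, 128588199 to 128592293, minus strand) encodes the Cxcl12 receptor that retains leukocytes in the bone marrow. Control libraries held 8329, 8044 and 8209 counts of it, and LPS libraries 7224, 6704 and 7189. Raw counts were thus lower in every LPS library, whereas normalized means were higher, at 177 ± 1.77 and 211 ± 4.96 CPM (log2 fold change 0.25, SE 0.03, edgeR adjusted p = 1.90e-06). With library size alone the direction reversed to -0.15 (adjusted p = 3.70e-04), so no direction independent of scaling can be given. Ackr3 (chromosome 1, 90203980 to 90216751, plus strand), the atypical receptor that scavenges Cxcl12 and Cxcl11, was counted 1, 0 and 1 times in control libraries and 3, 2 and 3 times in LPS libraries. None of these exceeded the floor of 3 counts, which equals 0.0630 to 0.0919 CPM and covers counting error only, so no fold change is given. Its expression was not detectable at this depth.

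**Figure D2:**
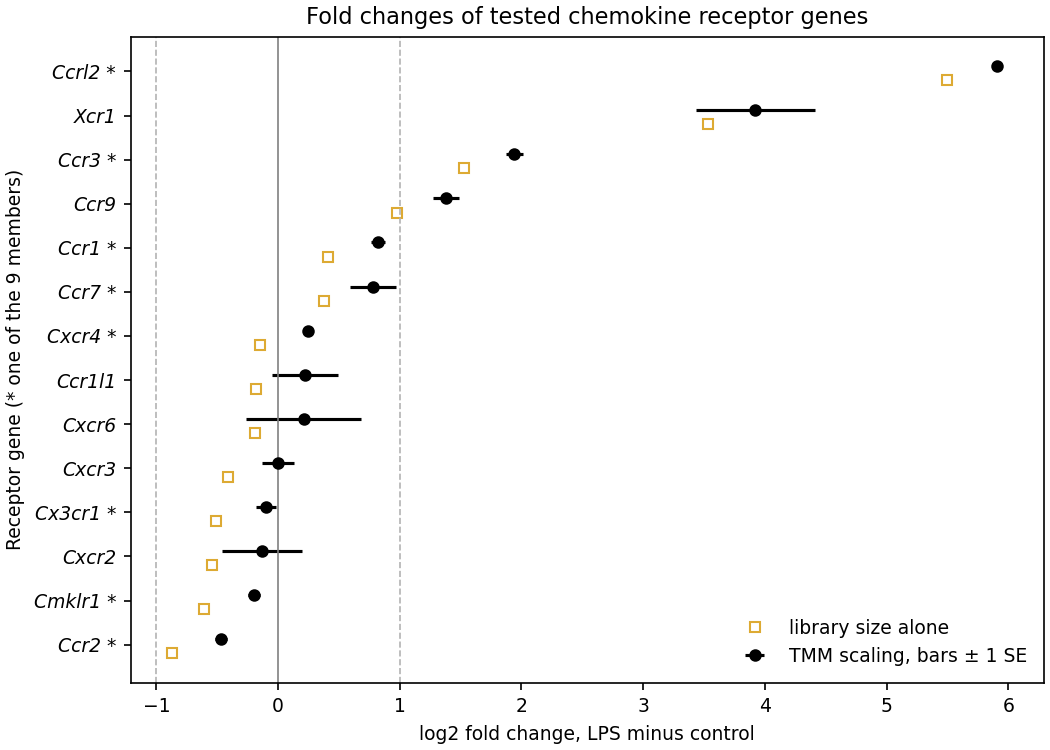
Log2 fold change of LPS minus control for the 8 tested genes (asterisks) and 6 other tested chemokine receptor genes, as filled points with bars of 1 SE under TMM and open squares with library size alone, with dashed lines at -1 and 1. Ccrl2 at 5.91 and Ccr3 at 1.94 stand beyond 1, the value of Cxcr4 changes sign from 0.25 to -0.15 with library size alone, and the fitted value of Xcr1 depends on the prior count because its control libraries held at most 2 counts.

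Levels between genes were compared as CPM per kilobase of exon. In control cells the order was Cxcr4 (97.9 ± 0.978), Ccr2 (38.5 ± 0.903), Cmklr1 (14.6 ± 0.385), Ccrl2 (6.92 ± 0.295), Ccr1 (6.39 ± 0.372), Ccr3 (1.82 ± 0.124), Cx3cr1 (1.59 ± 0.0651) and Ccr7 (0.554 ± 0.138). The libraries of Ccrl2 and Ccr1 overlapped, so that pair of neighbours had no order. The order of Cxcr4 and Ccr2 rests on the correction for exon length (1808 and 6760 bp), since in control cells Ccr2 had the higher CPM (260 against 177). The control order of Ccr3 and Cx3cr1 rests on it too (3272 and 4505 bp), since Cx3cr1 had the higher CPM (7.18 against 5.97). In LPS-treated cells Ccrl2 led at 416 ± 7.65, which was 3.57 times the level of Cxcr4 at 116 ± 2.74. Ccr2 (27.8 ± 2.24), Cmklr1 (12.7 ± 0.725), Ccr1 (11.3 ± 0.803) and Ccr3 (6.73 to 7.19 over the libraries) followed, then Cx3cr1 (1.48 ± 0.0231) and Ccr7 (0.955 ± 0.126), and no neighbours overlapped. Ackr3 came last in both groups.

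The makeup of the family's transcripts was also expressed as the share of each gene in the summed level per kilobase, which does not depend on scaling between libraries. Ccrl2 took 4.30%, 3.95% and 4.10% in control and 69.9%, 70.3% and 70.0% in LPS libraries, a difference of 66.0 percentage points. The share of Cxcr4 was 58.2% ± 0.542 in control and 19.6% ± 0.142 in LPS libraries, and that of Ccr2 was 22.9% ± 0.555 and 4.68% ± 0.294. The other 6 genes together took 14.9% ± 0.224 and 5.63% ± 0.0822. In each case the groups did not overlap and the exact permutation test gave p = 0.1, the smallest it can give here. Because shares sum to a fixed total, those of the other genes move with Ccrl2.

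**Figure D3:**
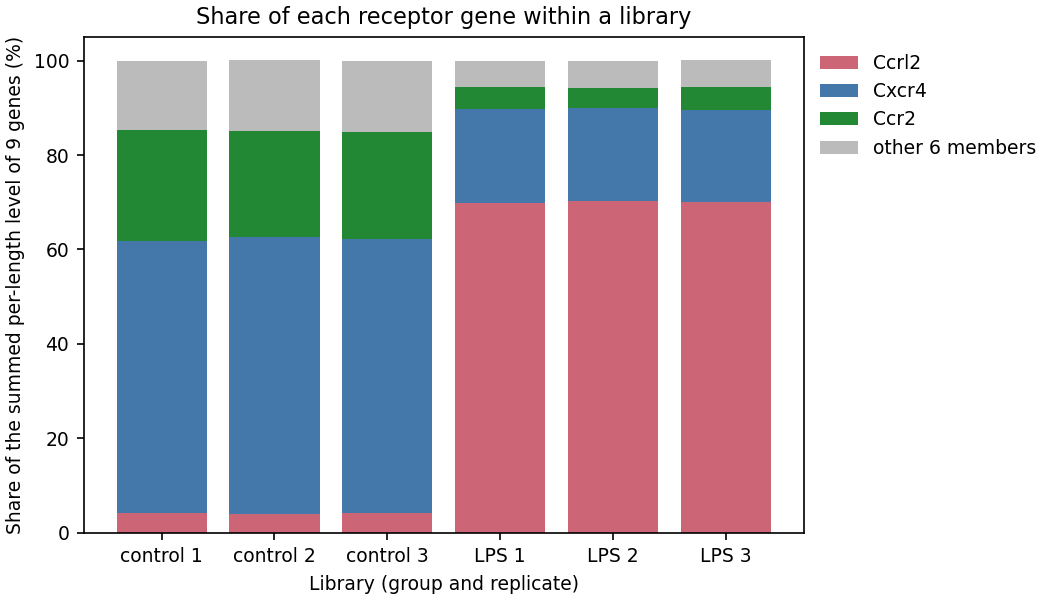
Stacked bars of the percent of the summed level per kilobase taken by Ccrl2, Cxcr4, Ccr2 and the other 6 genes together in each of the 6 libraries, starting at 0. Cxcr4 and Ccr2 fill most of the control bars, and Ccrl2 fills 69.9% to 70.3% of the LPS bars.

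Shares were therefore also computed without Ccrl2. The share of Ccr3 was 1.13% ± 0.0797 in control and 3.94% ± 0.0288 in LPS libraries, that of Ccr1 3.96% ± 0.217 and 6.33% ± 0.288, and that of Cxcr4 60.7% ± 0.455 and 65.6% ± 0.576. Lower shares in LPS libraries were seen for Ccr2 (23.8% ± 0.621 and 15.6% ± 0.902), Cmklr1 (9.07% ± 0.235 and 7.16% ± 0.606) and Cx3cr1 (0.988% ± 0.0400 and 0.835% ± 0.0136). These shares also sum to a fixed total, so the higher share of Cxcr4 moves with the lower share of Ccr2 and gives no direction for Cxcr4 itself. Ratios were also formed within each library. The ratio of Ccr3 to Ccr2, per kilobase, was 0.0474 ± 0.00208 in control and 0.252 ± 0.0138 in LPS libraries, and that of Ccr1 to Ccr2 was 0.166 ± 0.0103 and 0.405 ± 0.00781. The ratio of Cxcr4 to Ccr2 was 2.55 ± 0.0839 in control and 4.20 ± 0.277 in LPS libraries. All these groups were without overlap (exact permutation p = 0.1 each).

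Of the 9 genes, 5 lie on chromosome 9, and Ccr1, Ccr3 and Ccr2 lie there within 151434 bp. Ccrl2 is 12904604 bp and Cx3cr1 3892244 bp away from Ccr1. Ccr1l1, a Ccr1-like receptor gene between Ccr1 and Ccr3, had 19 to 25 counts in control and 19 to 20 in LPS libraries (log2 fold change 0.22, SE 0.27, edgeR adjusted p = 0.484). On the other side of Ccr1, the processed pseudogene Gm2774 went from 1, 3 and 0 counts in control libraries to 45, 40 and 58 in LPS libraries. Summed over libraries, its normalized level was 49.6 times higher with LPS (95% exact counting interval 18.9 to 184).

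Genes farther along the same side were looked at after their values were seen. Lztfl1 had a log2 fold change of 1.70 (SE 0.05), the processed pseudogene Gm10052 of 0.45 (SE 0.12), Fyco1 of -0.28 (SE 0.04) and the receptor gene Cxcr6 of 0.21 (SE 0.47), of which Cxcr6 alone did not pass by adjusted p. The receptor gene Xcr1, known from cross-presenting dendritic cells, went from 2, 1 and 2 counts in control libraries to 27, 17 and 15 in LPS libraries, a ratio of 16.4 (95% exact counting interval 6.63 to 52.2). Ccr9, the receptor of gut-homing lymphocytes, was counted 100, 113 and 106 times in control libraries and 209, 192 and 200 times in LPS libraries (log2 fold change 1.38, SE 0.11, edgeR adjusted p = 2.73e-09). It shares 1932 bp of exon with AC165425.1 on the other strand, which had 11 to 16 counts in the controls and 82 to 95 with LPS, and the strand setting of the counting is not given in the sources used here, so the value of Ccr9 is uncertain. With library size alone, its log2 fold change was 0.98. Around Ccrl2, the nearest tested genes also rose: Gm43814, an unclassified transcript 1292 bp beyond the 3′ end, had a log2 fold change of 2.74 (SE 0.19) and Lrrfip2 of 1.56 (SE 0.03).

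**Figure D4:**
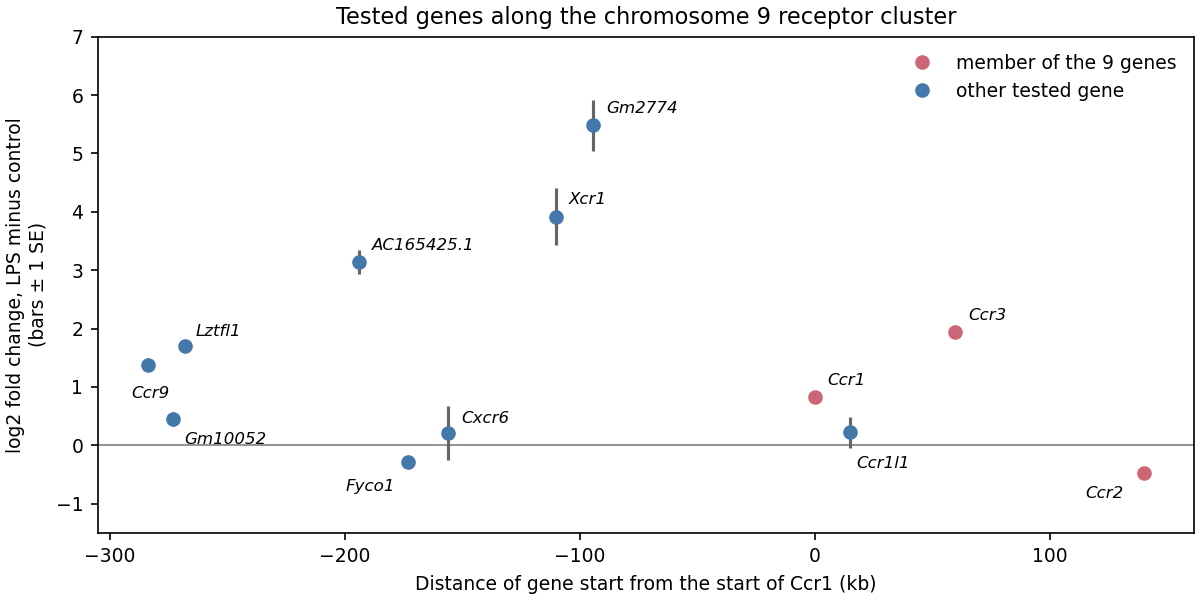
Log2 fold change of LPS minus control with bars of 1 SE for named tested genes along the chromosome 9 receptor cluster, by distance in kb of the gene's start coordinate from that of Ccr1, with the followed genes and the others in separate colours. Ccr1 (0.82), Ccr3 (1.94) and Ccr2 (-0.47) lie within 140 kb of each other, Ccr1l1 (0.22) lies between Ccr1 and Ccr3, and the fitted values of Gm2774 and Xcr1 depend on the prior count because their control libraries held at most 3 counts.

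Most of the remaining chemokine receptor genes had too few counts to test. Of 17 listed, 10 were below the filter, among them Ackr1 and Gpr1 with 0 counts in every library. Of the 7 tested, 2 rose, Ccr9 and Xcr1, and 0 fell with edgeR, where 10.5% of all tested genes rose and 10.4% fell. By adjusted p, 1 gene was lower with a smaller change, and DESeq2 and limma voom also called 0 falls. Among the other tested genes were Cxcr2, the neutrophil receptor for Cxcl1 and Cxcl2, with a log2 fold change of -0.13 (SE 0.33), Cxcr3, the receptor for Cxcl9 to Cxcl11, with a fold of 0.998, and Cxcr6, the Cxcl16 receptor, with 0.21 (SE 0.47). These did not pass the test with TMM, and each had groups that overlapped on the normalized scale. Cxcr3 had a log2 fold change of -0.41 with library size alone and then passed (edgeR adjusted p = 0.00935).

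Ligands of the followed receptors were read from the same fit. Of 18 listed, 14 were tested, 10 rose and 1 fell, where 10.5% of all tested genes rose and 10.4% fell. The median log2 fold change of the ligands was 2.84, against -0.01 for all tested genes. Among ligands of Ccr2, Ccl2 had 538 to 582 counts in control and 19699 to 21656 in LPS libraries (log2 fold change 5.69), Ccl7 rose by 5.83 and Ccl12 by 1.90 on the log2 scale. Ccl3 and Ccl5, which act on Ccr1, rose with log2 fold changes of 3.78 and 4.61, and the related Ccl4 with 4.95. Ccl9, a Ccr1 ligand, rose by 1.26, from 35937 to 41440 counts in control to 61093 to 72242 in LPS libraries, and its log2 fold change was 0.86 with library size alone, under the criterion for size. Ccl6, the other abundant Ccr1 ligand, had a log2 fold change of -0.20.

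Of the eotaxins that act on Ccr3, Ccl24 went from 9, 10 and 7 counts in control libraries to 85, 88 and 89 in LPS libraries (log2 fold change 3.78, SE 0.22), and Ccl11 had 0 counts throughout. Cx3cl1, or fractalkine, rose, with 24 to 39 counts in the controls and 38 to 63 with LPS (log2 fold change 1.14, SE 0.24, edgeR adjusted p = 4.98e-04) and had a log2 fold change of 0.73 with library size alone. Its call was also lost without control replicate 1 (0.96) or LPS replicate 2 (0.91). Cxcl11, which Ackr3 binds, was counted 3, 1 and 1 times in control libraries and 279, 248 and 234 times in LPS libraries, a ratio of 211 (95% exact counting interval 90.0 to 652). Cxcl12, the Cxcr4 ligand, had 9 to 26 counts and a log2 fold change of 0.03 (SE 0.37). Mif, which also binds Cxcr4, had 0.11 (SE 0.06), and neither passed the test. The Ccr7 ligands Ccl19 and Ccl21a had 0 counts. Ccl8 was the ligand that fell, with 461 to 500 counts in the controls and 168 to 183 with LPS. Its change lay on the criterion for size (edgeR adjusted p = 8.39e-09), and the call was lost with DESeq2's size factors (log2 fold change -0.98) and without control replicate 2 (-0.97) or LPS replicate 3 (-0.96), and also without LPS replicate 1.

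Downstream of the receptors, all 18 listed transducers were tested and 1 rose, where 10.5% of all tested genes rose. The riser was Pik3r5, a regulatory subunit of the phosphoinositide 3-kinase that G protein subunits activate. It had 9391 to 9715 counts in control and 14818 to 15197 in LPS libraries (log2 fold change 1.12, SE 0.03, edgeR adjusted p = 1.30e-15), and 0.71 with library size alone. Its catalytic partner Pik3cg had a log2 fold change of 0.34. By adjusted p, 14 transducers were higher and 1 lower, where 67.7% of all tested genes passed in either direction. The median of the transducers was 0.19 with TMM and -0.21 with library size alone, so the direction for most of them turned with scaling. Among 12 desensitisation genes 1 rose, Rgs1, a GTPase-activating protein that ends Gi signalling, with 3842 to 4435 counts in control and 20046 to 23161 in LPS libraries (log2 fold change 2.86, SE 0.04, edgeR adjusted p = 8.67e-20). The rest lay between -0.86 for Rgs14 and 0.46, and the median of the list was 0.01. In these lists 0 genes fell past both criteria with edgeR under TMM, DESeq2 or limma voom. Of all tested genes, 10.4% fell with edgeR under TMM. Under TMM, 1 transducer and 6 desensitisation genes were lower by adjusted p with smaller changes, and the other 6 desensitisation genes were higher by adjusted p. With library size alone, edgeR called falls of Rgs14 (log2 fold change -1.26) and Rgs19 (-1.04). Upper quartile scaling also called a fall of Rgs14, so the absence of falls among desensitisation genes depended on scaling.

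Receptors for other chemoattractants were read beside the family. Of 12 listed, 11 were tested, 4 rose and 1 fell, with a median log2 fold change of 0.51. The risers were C5ar1, the complement C5a receptor (1.29), Gpr183, an oxysterol receptor (1.46), S1pr1, a sphingosine 1-phosphate receptor (1.61), and Ptger4, a prostaglandin E2 receptor (2.08). C5ar1 had 0.89 with library size alone and then no longer passed the criterion for size. S1pr2, the sphingosine 1-phosphate receptor that restrains migration, fell from 6036 to 6304 counts in control to 1176 to 1218 in LPS libraries (log2 fold change -1.90, SE 0.04). Over the lists of receptors, ligands, transducers, desensitisation genes and chemoattractant receptors, 18 genes rose and 2 fell (90.0% rises) with TMM, and 13 rose and 5 fell (72.2% rises) with library size alone. Of the 18 rises with TMM, 10 were ligands. Among all tested genes, 10.5% rose and 10.4% fell with TMM. The matching shares with library size alone are not given here, so the 72.2% has no background to be read against. The median log2 fold change of all tested genes also moved, from -0.01 with TMM to -0.42 with library size alone.

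**Figure D5:**
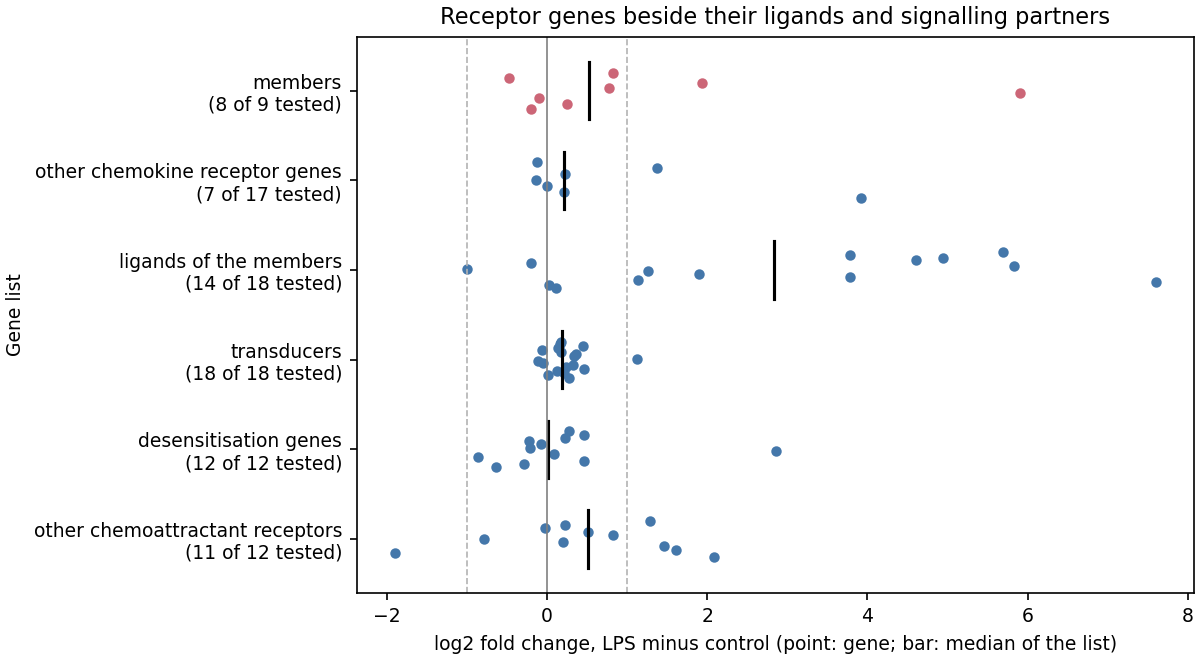
Log2 fold change of LPS minus control for each tested gene of the followed receptors and of the lists around them, as points by list with a bar at each list's median. The ligands have a median of 2.84, the transducers 0.19 and the desensitisation genes 0.01, and the followed receptors reach from -0.47 to 5.91.

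Genes with the pattern most like Ccrl2 and Ccr3 were found by the root mean square difference of centred log2 CPM over the 6 libraries, among the 12136 genes whose mean reached 50 counts. For Ccrl2 these were Ccl7 (difference 0.0653), Gpr84, a receptor for medium-chain fatty acids (0.0877), and Gm9115 (0.104). For Ccr3 they were Mir17hg, the host gene of a microRNA cluster (0.0364), Rnf24 (0.0392) and Ankrd28 (0.0444), with log2 fold changes of 1.91, 1.93 and 1.99. Libraries within a group lay close together, so this measure mostly finds genes with a similar difference between the groups. It does not show shared regulation. Other cell type markers stayed small or moved as follows. Neutrophil markers summed to 37.2 to 39.9 CPM in control and 49.7 to 52.1 CPM in LPS libraries, with 0 of 7 tested genes past both criteria and Ly6g at or under 3 counts. The median log2 fold change of the neutrophil markers was 0.37 with TMM and -0.04 with library size alone, so their higher sum depended on scaling. Monocyte markers summed to 12.6 to 13.9 and 24.8 to 26.2 CPM, where Vcan rose (log2 fold change 1.70) and Ly6c2 did not pass the test. Their part in the receptor differences was not tested.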

How the data were processed

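Strand-specific total RNA libraries were made from the 6 BMDM samples after depletion of ribosomal and globin RNA. Per the submitters' processing notes and the study's methods, the authors checked reads with FastQC 0.11.9, aligned them to GRCm38 with HISAT2 2.1.0, processed alignments with SAMtools 1.17 and counted reads per gene with featureCounts 2.0.0. The deposited values are these raw counts, without normalization or pooling. The annotation release, strand setting and handling of multimapping reads are not given in the sources used here, so overlapping genes and genes that share sequence are uncertain. Of 55335 identifiers, 55154 matched GENCODE M21 once the version was removed, and gene coordinates are those of that release on GRCm38, counted from 1.

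Groups were taken from the sample titles. Counts were tested in R 4.3.3 with edgeR 4.0.16 (filterByExpr, TMM, quasi-likelihood test, Benjamini-Hochberg adjustment over 15687 genes). Calls needed an adjusted p under 0.05 together with a change of more than 1 on the log2 scale. CPM per kilobase used the union of a gene's exons. Shares and ratios were compared with exact two-sided permutation tests. Counting intervals and the floor of 3 counts cover counting error only, because reads without molecular identifiers are not independent molecules. The labels give replicate numbers as batches, so the numbers pair the libraries. Deviations of same-numbered libraries correlated at -0.0139 to 0.0822, against -0.0817 to 0.0446 for other pairs. The alternatives comprised scaling by library size alone, by upper quartile or by DESeq2's size factors, filters of 1 count in any library or 10 counts in every library, DESeq2 1.42.0, limma 3.58.1 (voom), the replicate block, removal of the 10 most abundant genes, edgeR's glmTreat, and leaving out each library. On simulated counts for this comparison with 15097 genes, edgeR recovered 198 of 200 changed genes with 0 false calls. Those 200 were drawn from genes above low counts and changed by a fixed size, up or down at random, with all other genes unchanged. Far more genes differed in the real data, so the simulation says nothing about the dependence on scaling.

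The members and the lists were chosen with earlier results of these data known. All 9 members are named, as are the genes of the lists that passed both criteria, the tested receptors, the genes within the chromosome 9 cluster and beside it, and the 3 genes most like each member that rose. Names beyond that rule were chosen after their values were seen, as were the examples from the marker lists. Single results for 1 receptor gene and 1 marker gene are not reported here.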

Additional observations from a re-analysis of the deposited data

How the results depend on the processing

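Of 524 values for 33 genes followed under the alternatives, 508 kept their direction and their side of the threshold on the adjusted p, or of the call itself with glmTreat, 3 passed it newly, 3 lost it and 10 reversed. Counted on both criteria, calls were lost 17 times, in Ccl8, Ccr9, Ccl9, Cx3cl1, Pik3r5 and C5ar1, and gained 6 times. Under the filter of 10 counts in every library, 3 genes with a call, Xcr1, Ccl24 and Cxcl11, were not tested. Cxcr6, which had no call, was not tested there either. Ccrl2 and Ccr3 passed both criteria under every alternative run, and Ccr7 joined them without control replicate 3 (log2 fold change 1.01), so leaving out a library gave 2 to 3 rises and 0 falls among the members. The replicate block (pairing) changed no call, with log2 fold changes of 5.91 for Ccrl2 and 1.94 for Ccr3. With library size alone, the sign reversed for Cxcr4 (-0.15), Ccr1l1 (-0.18) and Cxcr6 (-0.19). Cxcr3 had -0.41 with library size alone, where it passed (edgeR adjusted p = 0.00935), 0.02 with DESeq2's size factors, 0.01 with DESeq2, and -0.1 to 0.14 when a library was left out, with 0.07 without control replicate 2 and 0.14 without LPS replicate 2. For Cxcr2 the range was -0.56 to 0.12, with 0.06 without control replicate 2 and 0.12 without LPS replicate 1, and for Cxcr6 -0.25 to 0.59, with -0.25 without control replicate 3. The cause was not tested.

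In the lists around the members, 2 genes fell, but 5 with library size alone and 1 with DESeq2's size factors, DESeq2, limma voom or glmTreat, where Ccl8 was lost. Leaving out a library gave 1 to 2, with 1 without control replicate 2 or LPS replicate 3, and without LPS replicate 1 Ccl8 was lost and Ltb4r2 gained. Upper quartile scaling lost Cx3cl1 and Pik3r5 and gained a fall of Rgs14. Differences in share, LPS minus control, were 64.8 points for Ccrl2, -19.7 for Cxcr4, -36.6 for Ccr2 and -8.58 for the other 6 when counts were not corrected for length, and 62.1, -27.4, -13.6 and -6.41 when the other chemokine receptors were added to the sum. Exact tests on shares cannot go below 0.1 with 3 against 3 libraries, so they say nothing about stability. Low counts limit what can be read for Ccr7, Cxcr2, Cxcr6 and Ccr1l1.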
